A study of Arabidopsis thaliana with 2 samples.

Results

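AT1G12180 lies on chromosome 1 and is described as a heat shock protein in the study's list of candidate maternally expressed genes (MEGs). It was covered by 7 of the 147349 SNP windows that had at least 1 matched read in the series. RNA was sequenced from whole F1 seeds at 4 days after pollination (DAP), from both reciprocal crosses of Col-0 with Bur-0, a pair of Arabidopsis thaliana accessions, and crosses are named with the mother first. The Col-0×Bur-0 seeds had a Col-0 mother and a Bur-0 father, and the Bur-0×Col-0 seeds a Bur-0 mother and a Col-0 father. The mothers were emasculated and pollinated by hand, the labels name no mutation or treatment beyond this, and seeds of many siliques were pooled for each of the 2 libraries, 1 per cross. The 7 windows are those that lie inside the TAIR8 interval chr1:4130484-4131161, which runs from the start of the first to the end of the last window. AT1G12180 was chosen by its strong maternal bias and by the difference of its maternal matches between the crosses, so both are given as descriptions, with no test.

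Heat shock proteins are chaperones that keep other proteins from aggregating or help them to fold. The small heat shock proteins share an alpha-crystallin domain and hold unfolding clients without using ATP, and in plants many of them appear after heat or during seed development. A seed joins a maternal seed coat with an embryo that has one genome of each parent and an endosperm that has a pair of maternal genomes and a single paternal one. A gene that is only expressed in the seed coat and a gene whose paternal allele is silent in the endosperm therefore both give maternal reads alone in whole seeds. These cases cannot be told apart here, and neither can a different number of expressing cells and a different amount of RNA per cell. The study placed AT1G12180 among its candidates after it had passed a filter, made with separate microarray profiles, for higher signal in the endosperm than in the seed coat and low signal in vegetative tissues, a selection that was not repeated here.

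The values are counts of deposited matches. A match is a 36-nt read placed with up to 2 mismatches in a 71-nt window around 1 SNP, in the version with the Col-0 base or in that with the Bur-0 base. In all, 6773239 matches came from the Col-0×Bur-0 library and 8576779 from the Bur-0×Col-0 library, each over 4 lanes. Intervals of counts and ratios are exact, those of shares are Wilson intervals, and all are 95% intervals that cover counting error only, since the reads carry no molecular identifiers. With 1 library per cross, the mother, the allele measured as maternal and the library change together, and their parts in a difference cannot be told apart.

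Nearly every match to AT1G12180 was to the allele of the mother. With a Col-0 mother, 2507 maternal and 0 paternal matches were found. The count of 0 allows a paternal share of up to 0.120% by the 3-match limit and up to 0.153% by the 95% Wilson interval. With a Bur-0 mother, 367 maternal matches and 1 paternal match were found, a maternal share of 99.7% (95% Wilson interval 98.5% to 99.95%). The paternal share of Bur-0×Col-0, 0.272% (95% Wilson interval 0.0480% to 1.52%), thus overlaps that of the other cross. The single paternal match was a Col-0 match in lane 3, in window 3, 12 nt into it, where 8 maternal matches of the same cross started as well. The files do not say how many mismatches a match had, so how well this read fits the Col-0 base is not known. A depth of at least 20 matches in both crosses was reached by 4 of the 7 windows, and 3 of these had no paternal match in either cross. Of all 34959 windows of this depth, 16.7% had none.

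The Col-0 allele was therefore seen 2507 times when it came from the mother and 1 time when it came from the father, a ratio of 2507 (exact 95% interval 450 to 99060). The Bur-0 allele was seen 367 times from the mother and 0 times from the father, at least 122-fold more often, with the count of 0 set to 3. These ratios of one accession join both libraries and are not scaled. They show that the matches followed the mother in both accessions.

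The maternal matches were much more frequent with a Col-0 mother. Scaled to 1000000 matches of the library, the level was 370.1 in Col-0×Bur-0 (exact 95% interval 356 to 385) and 42.8 in the reciprocal cross (38.5 to 47.4). The scaled level with a Col-0 mother was 8.65 times that with a Bur-0 mother (exact 95% interval 7.75 to 9.68), or 3.11 on the log2 scale. With this scaling the median of the 32731 windows that had 20 or more maternal matches in both crosses was 0.36 on the log2 scale, towards Col-0×Bur-0. Relative to that median window, the difference of AT1G12180 was 2.75 on the log2 scale, or 6.73-fold. Counting one start and strand once per lane lowered the ratio to 2.89, and scaling by the total reads that the methods of the study state lowered it to 5.73.

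The lanes of a cross are repeated runs of 1 library and show technical spread only. In Col-0×Bur-0 the maternal matches were 754, 646 and 662 in lanes 4, 5 and 6 of one instrument run and 445 in lane 6 of a second run. In Bur-0×Col-0 they were 99, 86 and 94 in lanes 1, 2 and 3 of the first run and 88 in lane 5 of the second. Per 1000000 matches of the lane, the levels ranged from 343 to 412 with a Col-0 mother and from 37.4 to 50.8 with a Bur-0 mother. The lanes of the crosses did not overlap, and the lowest lane with a Col-0 mother was 6.77 times the highest lane with a Bur-0 mother. Within the first run the scaled ratio was 9.23 (exact 95% interval 8.14 to 10.5), and within the second, with 1 lane per cross, it was 6.77 (5.37 to 8.61). Both lanes of the second run were at an end of the range of their cross, the lowest of Col-0×Bur-0 and the highest of the reciprocal cross.

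**Figure D1:**
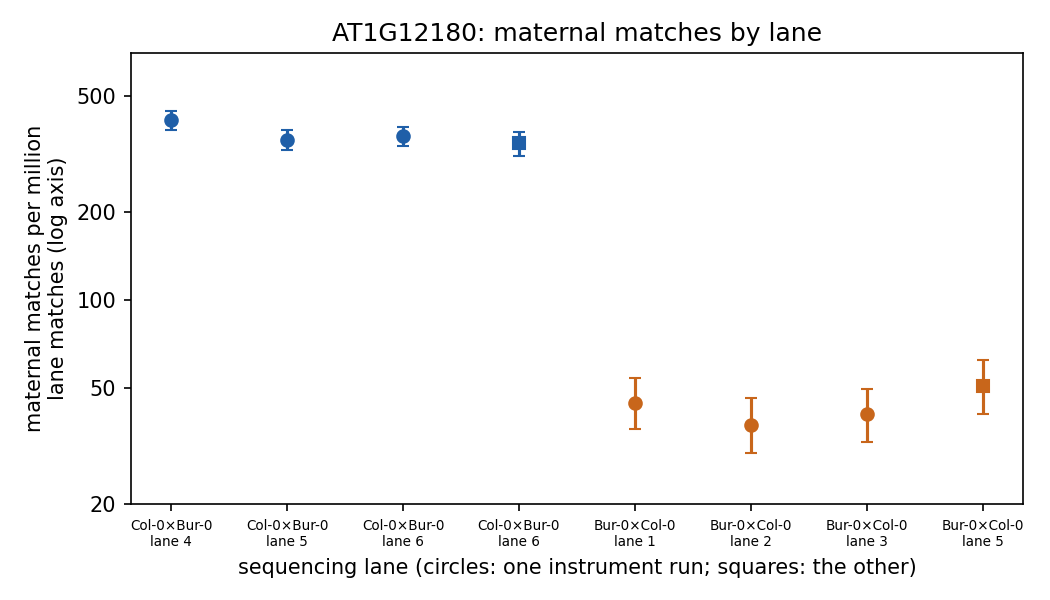
Maternal matches to AT1G12180 per 1000000 matches of the lane, on a log axis, for the 4 lanes of each cross, with exact 95% Poisson intervals as bars and the instrument run as symbol. The lanes lie between 343 and 412 for Col-0×Bur-0, and those of the reciprocal cross between 37.4 and 50.8.

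Most matches came from 4 of the windows, numbered 2 to 5 along the chromosome. Window 2 (chr1:4130582-4130652) had 288 maternal matches in Col-0×Bur-0 and 38 in the reciprocal cross, a scaled ratio of 9.60 (exact 95% interval 6.83 to 13.8). Window 3 (chr1:4130902-4130972) had 674 and 91, a scaled ratio of 9.38 (7.53 to 11.8). The difference between the crosses was thus as large in these windows, which lie apart from each other, as in the gene as a whole. Window 4 (chr1:4130948-4131018) had 600 and 85 maternal matches, a scaled ratio of 8.94 (7.11 to 11.4). Window 5 (chr1:4130974-4131044) was the deepest, with 925 and 133 maternal matches and a scaled ratio of 8.81 (7.34 to 10.6). The ratios of these 4 windows ranged from 8.81 to 9.60 and their intervals overlapped. The share of the maternal matches of the gene that fell in window 2 varied between lanes, from 6.23% to 18.9% with a Col-0 mother and from 5.81% to 15.9% with a Bur-0 mother, and it was highest in the lane of the second instrument run in both crosses. Over all lanes, windows 2 to 5 took similar shares in the crosses, such as 36.9% and 36.2% in window 5.

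The windows at the ends of the gene had few matches in both crosses, and windows 6 and 7 have close SNPs, as described below. Window 1 (chr1:4130484-4130554) had 3 maternal matches in Col-0×Bur-0 and 0 in the reciprocal cross. Window 6 (chr1:4131087-4131157) had 15 and 19, a scaled ratio of 0.9997 (exact 95% interval 0.473 to 2.08), and its interval lies below those of the 4 deep windows. Window 7 (chr1:4131091-4131161) had 2 maternal matches in Col-0×Bur-0 and 1 in the reciprocal cross. The exon and intron structure of the build was not used here, so the windows are given by position alone.

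**Figure D2:**
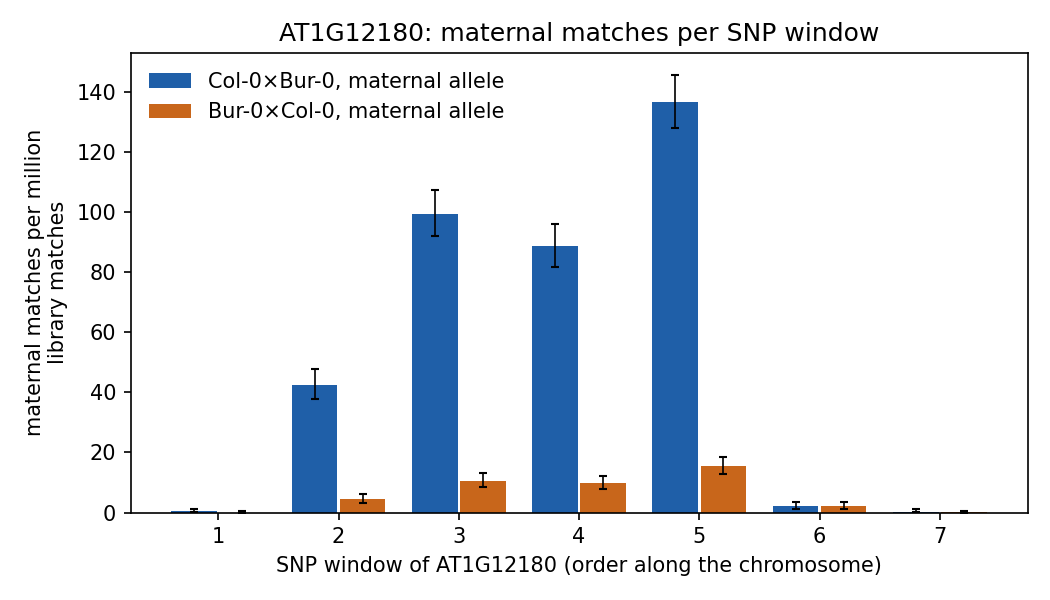
Maternal matches per 1000000 matches of the library for the 7 windows of AT1G12180 in their order on the chromosome, with a bar for each cross and exact 95% Poisson intervals. The bars of Col-0×Bur-0 are higher in windows 2 to 5, from 42.5 against 4.43 in window 2 to 137 against 15.5 in window 5, and the bars of window 6 are alike at 2.21 and 2.22.

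Window 6, which was even between the crosses, has one of the closest pairs of SNPs. The SNPs of windows 6 and 7 are 4 nt apart, at 4131122 and 4131126, and those of windows 4 and 5 are 26 nt apart, at 4130983 and 4131009. A Col-0 read over both SNPs has the same sequence in both Col-0 windows, and only matches unique in the set of windows were kept. A Bur-0 read over both SNPs differs from each of its Bur-0 windows at the other SNP and could be kept in both. At starts where the read covers more than 1 matched SNP, 0 of the 2507 maternal Col-0 matches and 51 of the 367 maternal Bur-0 matches were found. In window 6 these were 0 of 15 and 14 of 19. Windows 6 and 7 each have 4 starts that cover 1 SNP alone. Windows 4 and 5 have 26 each, and windows 1 to 3 have 36 each. All maternal Col-0 matches lay at such starts, so the SNP spacing limits how many windows 6 and 7 could hold. Of the Bur-0 reads, 17 were counted in both windows of a pair, and no Col-0 read was counted more than once. Over the whole library, matches exceeded distinct reads by 0.426% in Col-0×Bur-0 and by 7.54% in the reciprocal cross.

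With starts that cover 1 SNP alone, 2507 maternal matches in Col-0×Bur-0 stood against 316 in Bur-0×Col-0, and the scaled ratio was 10.0 (exact 95% interval 8.93 to 11.3). In window 6, 15 stood against 5. With windows that have no other matched SNP within 35 nt alone, which are windows 1 to 3, the counts were 965 and 129 and the ratio was 9.47 (7.88 to 11.5). With all starts and the library scaled by matches to windows of that kind, the ratio was 6.67. When the library was also scaled by windows of that kind, the ratio at starts with 1 SNP was 7.75 (6.89 to 8.74). How many Col-0 reads over close SNPs were lost was not measured. Bur-0 differences outside the list of SNPs, which could keep Bur-0 reads from being matched, were not analysed here.

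The reads of both crosses began at many of the same positions. The maternal matches used 182 pairs of start and strand in Col-0×Bur-0 and 111 in the reciprocal cross, and 80 pairs were shared, 44.0% of the former and 72.1% of the latter. The most used start of the gene lay 20 nt into window 5, with 461 of its 925 maternal matches in Col-0×Bur-0, 460 of them on the reverse strand. In Bur-0×Col-0 the same start held 52 of 133 matches, all on the reverse strand. In window 3 the most used start was 2 nt into the window in both crosses, with 102 of 674 and 12 of 91 matches. In window 2, 287 of 288 maternal Col-0 matches and 38 of 38 maternal Bur-0 matches started 17 nt or more into the window, so its left part was almost bare in both crosses. Over the gene, 47.9% of the maternal matches in Col-0×Bur-0 and 45.2% in the reciprocal cross were in forward orientation.

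**Figure D3:**
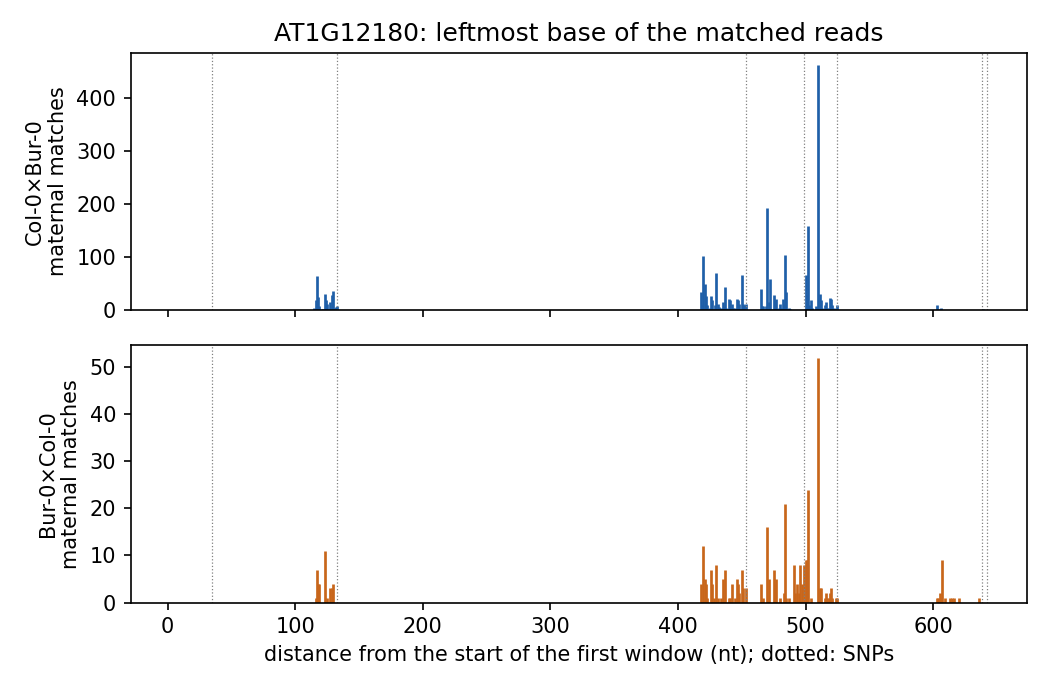
Number of maternal matches by the position of the leftmost base of the read, in nt from the start of the first window, for Col-0×Bur-0 in the upper and Bur-0×Col-0 in the lower panel, each with its own linear axis and with the SNPs as dotted lines. Both profiles peak at the same start with 461 and 52 matches, and only Bur-0×Col-0 has matches at starts that cover 2 SNPs.

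A difference between the crosses of some size was frequent in the series. Of the 60420 windows with at least 20 maternal matches, 19.8% were at least 2-fold higher in Col-0×Bur-0 and 24.8% at least 2-fold higher in Bur-0×Col-0. Of the 5 windows of AT1G12180 with as many matches, 4 were at least 2-fold higher in Col-0×Bur-0, which is the contrast the gene was chosen for. A ratio of at least that of the whole gene was found in 2.92% of all such windows. The end bins of the ratios held 5062 windows towards Bur-0×Col-0 and 738 towards Col-0×Bur-0. The 24.8% includes windows with close SNPs, where Bur-0 reads can be kept and Col-0 reads over both SNPs are not. Among the 35360 windows of this depth that have no other matched SNP within 35 nt, 27.2% were at least 2-fold higher in Col-0×Bur-0 and 3.43% reached the ratio of the gene. The share of these windows that was higher in Bur-0×Col-0 was not computed.

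**Figure D4:**
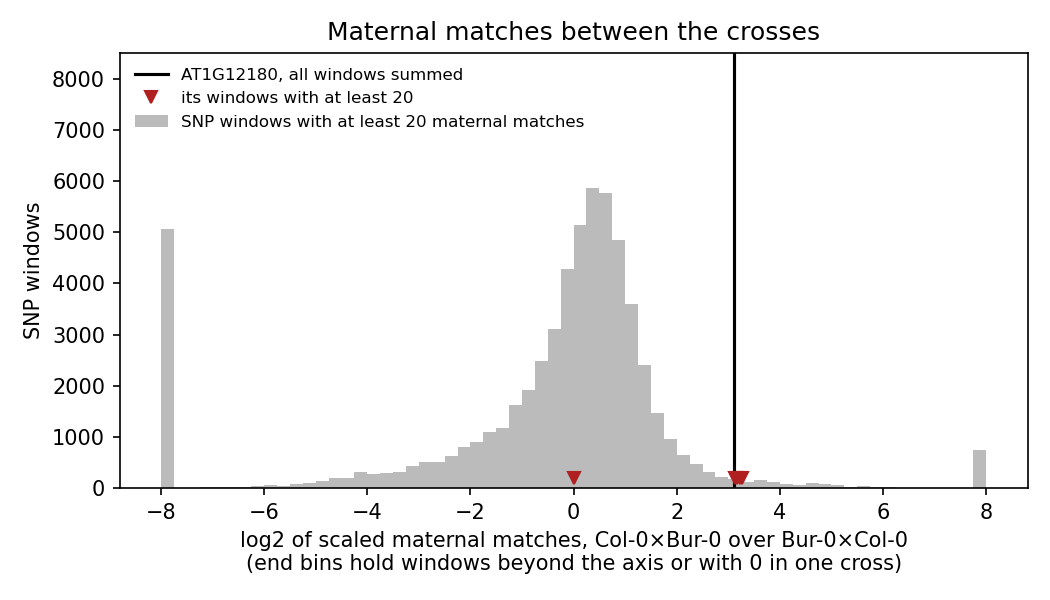
Number of SNP windows with at least 20 maternal matches by the log2 ratio of scaled maternal matches, Col-0×Bur-0 over Bur-0×Col-0, with AT1G12180 as a line at 3.11 and its 5 windows of this depth as triangles. Of these windows, 4 lie beside the line and window 6 lies at 0.00, and the end bins hold windows that have 0 matches in one cross or lie beyond the axis.

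AT1G12180 had one of the highest ratios among the loci that could be compared, which are a selected part of all genes. Gene regions were available for 1944 other loci with maternal matches in both crosses, 1915 from the study's list of maternally biased loci as far as it was used here and 29 more from its list of candidate MEGs. They were placed where a run of windows has the listed allele counts, so that their counts equal the listed ones by construction. The median ratio of these loci was 0.18 on the log2 scale, the lower and upper quartile were -0.20 and 0.51, and 2 were above AT1G12180. Of these loci, 5.35% were at least 2-fold higher in Col-0×Bur-0 and 4.01% at least 2-fold higher in the reciprocal cross. Of the 37 other candidate MEGs with a ratio, 5 were at least 2-fold higher in Col-0×Bur-0 and 8 at least 2-fold higher in Bur-0×Col-0. Only AT4G22050 was above AT1G12180 among them, with 794 maternal matches in Col-0×Bur-0 and 43 in the reciprocal cross and a scaled ratio of 23.4 (exact 95% interval 17.2 to 32.6). AT3G57250 followed with 67 and 12 and a ratio of 7.07 (3.79 to 14.4), which overlaps the interval of AT1G12180.

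The loci most like AT1G12180 were sought among those that had 200 or more maternal matches over both crosses and a maternal share of at least 99% in each, 522 loci besides it, by the distance in log2 ratio. The nearest was EXLA1 (AT3G45970), an expansin-like gene, with 5454 and 1028 maternal matches and a scaled ratio of 6.72 (exact 95% interval 6.28 to 7.19). PMEPCRA (AT1G11580), a pectin methylesterase gene, had 3333 and 376 and a ratio of 11.2 (10.1 to 12.5). The interval of EXLA1 lies below and that of PMEPCRA above that of AT1G12180, 7.75 to 9.68. AT1G21440 with 2293 and 508 matches had a ratio of 5.72. SCPL11 (AT2G22970), a serine carboxypeptidase-like gene, had 1420 and 370 and a ratio of 4.86. AT5G10770 had 2232 and 635 and a ratio of 4.45. The likeness is one of this ratio in 2 libraries alone.

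Few other heat shock genes could be placed. None of 33 listed genes with a small heat shock or alpha-crystallin domain was among the placed loci. Of 29 listed large heat shock proteins, their partners and heat shock factors, 5 were placed, and 0 were at least 2-fold higher in either cross, where 5.35% and 4.01% of the placed loci were. HSC70-1 (AT5G02500), a constitutive cytosolic HSP70, had 5666 and 5594 maternal matches and a ratio of 1.28, with maternal shares of 90.3% in Col-0×Bur-0 and 96.8% in the reciprocal cross. SHD (AT4G24190), the HSP90 of the endoplasmic reticulum, had 4773 and 3293 and the highest ratio of the 5, 1.84. All 5 had paternal matches in both crosses, between 38 and 609, and maternal shares between 90.3% and 98.4%.

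Seed coat and endosperm genes were set beside the result. Of 12 listed seed coat genes 10 were placed, with maternal shares from 99.8% to 100% over the crosses. Their ratios ranged from 0.404 for AHA10 (AT1G17260), a proton pump gene of the pigmented layer, to 1.68 for TTG2 (AT2G37260), a regulator of seed coat development. None of the 10 was at least 2-fold higher in Col-0×Bur-0, where 5.35% of the placed loci were, and with so few genes nothing is read from either count. Their summed maternal level was 30031 per 1000000 matches there and 39894 in Bur-0×Col-0. That sum mainly follows BAN (AT1G61720) and LDOX (AT4G22880). With a Col-0 mother they had 94972 and 66672 of the 203409 summed matches. With a Bur-0 mother they had 146101 and 142139 of 342162. These genes have 34 and 37 windows, and the effect of close SNPs on the sum was not tested. Of 8 listed endosperm genes 3 were placed. FWA (AT4G25530) had 22 and 42 maternal matches and a ratio of 0.663, and AGL36 (AT5G26650) had 114 and 166 and a ratio of 0.870. PHE1 (AT1G65330), a paternally biased MADS-box gene, had 33 and 2 maternal matches and a ratio of 20.9 (exact 95% interval 5.34 to 180). None of the 3 listed embryo genes was placed. The part of the makeup of the seeds in the difference of AT1G12180 was not tested.

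A second run of windows near AT1G12180 was also higher with a Col-0 mother. On the side of lower coordinates, the nearest 21 matched windows had no gap of over 1000 nt between the SNPs of neighbours, and the 15 farther ones of them had no paternal match. This run of 15 windows lies at chr1:4126129-4128166, 2318 nt from window 1 of AT1G12180, and it was chosen after its values were seen. The border of the run towards the gene was drawn where paternal matches ended. Their absence in these 15 windows, and their presence in the windows nearer to the gene, follow in part from that choice. Together they had 270 maternal matches in Col-0×Bur-0 and 26 in the reciprocal cross, and the scaled ratio was 13.1 (exact 95% interval 8.78 to 20.5). The maternal counts per window lay between 3 and 40 with a Col-0 mother and between 0 and 4 with a Bur-0 mother, and they were higher in Col-0×Bur-0 before scaling in 14 of the 15 windows. The share of all windows of the series that were higher in Col-0×Bur-0 before scaling was not computed. At this depth, 0 paternal matches leave room for paternal shares of up to 1.11% with a Col-0 mother and 11.5% with a Bur-0 mother. The gene that these windows belong to is not named here, since the annotation of the build was not used.

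The windows between and beyond these runs had smaller differences. Between them, 6 windows at chr1:4128684-4129517 had 15 maternal and 9 paternal matches with a Col-0 mother and 20 maternal and 8 paternal ones with a Bur-0 mother, a scaled maternal ratio of 0.9497 (exact 95% interval 0.452 to 1.95). Beyond the run, 4 windows on the lower side within 10000 nt of the gene had 69 maternal matches in Col-0×Bur-0 and 44 in the reciprocal cross, a scaled ratio of 1.99 (exact 95% interval 1.34 to 2.97), and 5 and 2 paternal matches. On the higher side, 13 windows at chr1:4132873-4134044 had 8 maternal and 19 paternal matches with a Col-0 mother and 23 maternal and 12 paternal ones with a Bur-0 mother, a scaled maternal ratio of 0.440 (0.170 to 1.02). Farther on, AT1G12200 with 35 windows had 2737 and 3600 maternal matches and a ratio of 0.963 (0.916 to 1.01), with maternal shares of 99.5% and 99.9%. AT1G12200 was thus nearly as fully maternal as AT1G12180, and its scaled level summed over all its windows was close to even between the crosses. That sum includes windows with close SNPs, such as neighbouring ones with 0 maternal matches in Col-0×Bur-0 against 160 and 96 in the reciprocal cross. Before scaling, 11 of the 35 windows of AT1G12200 were higher in Col-0×Bur-0, the library with fewer matches, and the share over all windows was not computed. The ratio of AT1G12200 without windows with close SNPs was not computed. No window lay across a border of the AT1G12180 region, and the nearest matched windows outside it were 967 nt away on the lower and 1712 nt away on the higher side.

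**Figure D5:**
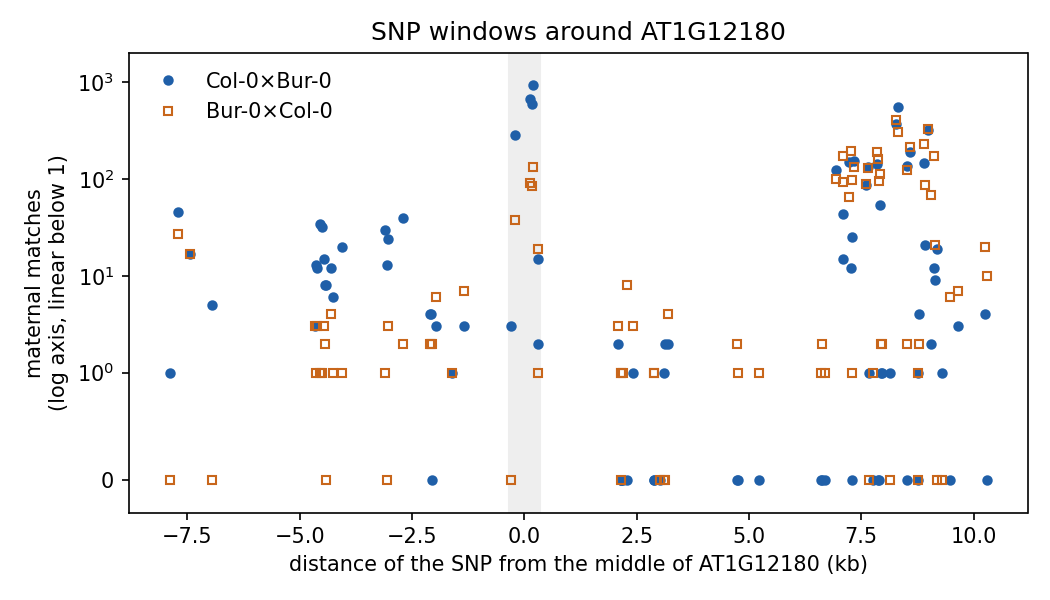
Maternal matches per SNP window within 10000 nt of AT1G12180, by the distance of the SNP from the middle of the gene in kb, on an axis that is logarithmic above 1 and linear below, with filled circles for Col-0×Bur-0 and open squares for Bur-0×Col-0. The circles lie above the squares in the windows of AT1G12180 (grey band), except window 6 with 15 against 19, and in 14 of the 15 windows of the run on its lower side, and they mix with the squares in AT1G12200 on the right.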

How the data were processed

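The authors matched 36-nt reads with vmatch (up to 2 mismatches, both orientations, unique in the set of windows) to windows of 71 nt cut from TAIR8 around each SNP of Bur-0, in a version for either allele. They deposited 1 line per match, with no counts and no other unit (the start in the window is the only number used), for 569797 SNPs. Lines were counted here per window, allele, cross and lane, and the 4 lanes of a cross were summed. Lane and instrument run were read from the read names, and reads per lane (in all 121894863 in Col-0×Bur-0 and 129251366 in the reciprocal cross) from the file headers. Lanes held 1295748 to 1830948 and 1733892 to 2313110 matches. Maternal matches were divided by the library's matches. Ratios have the exact interval of the conditional binomial distribution. A count of 0 was set to 3 only for the limits of paternal shares and the at-least ratio of the Bur-0 allele. Loci with 0 maternal matches in either cross were given no ratio.

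A gene in the tables of the study was placed where a run of neighbouring windows has its 4 allele counts. This placed 1916 of the 1998 maternally biased loci used, which are a part of the study's full list, and 38 of 39 candidate MEGs. Symbols are those of RefSeq for TAIR10.1. AT1G12180, the gene lists and the comparisons were chosen with earlier results of these data known. Genes named are AT1G12180, its neighbours, the listed genes, the 5 most like it and, chosen after their values were seen, the leading candidate MEGs. No sequences of the windows or of the protein were used here. Levels are per 1000000 matches. The ratios, their intervals and the placement of loci were tested on simulated data with independent counts. Those data did not model the loss or double counting of reads at close SNPs, or repeated copies of a molecule. The tools were SciPy 1.17.1, pandas 2.3.3 and NumPy 2.4.6 under Python 3.11.15, and Matplotlib 3.10.9 for the plots.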

Additional observations from a re-analysis of the deposited data

How the results depend on the processing

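The maternal shares and the direction of the difference were kept under all alternatives run, and the scaled ratio of 8.65 ranged from 2.89 to 10.0. By scaling, it was 6.83 with unscaled matches, 6.73 with the median window, 5.73 with the total reads stated in the methods and, chosen after seeing the data, 7.24 with the reads in the file headers and 6.67 with matches to windows that have no other matched SNP within 35 nt. The methods and the headers give different read totals, and which of them fits the deposited matches was not tested. Counting each combination of start and strand at most once in a lane gave 2.89. This count is bounded by its construction, since 336 pairs of start and strand cover 1 SNP and 105 to 131 were used per lane in Col-0×Bur-0 against 45 to 58 in Bur-0×Col-0. Also chosen after seeing the data, the second instrument run alone gave 6.77, starts that cover 1 SNP gave 10.0, and these starts with the library scaled by windows without close SNPs gave 7.75. Leaving out 1 lane at a time gave ratios from 8.27 to 9.08, and maternal shares in Bur-0×Col-0 from 99.6% to 100%, the latter without lane 3, which held the paternal match. The number of windows at least 2-fold higher in Col-0×Bur-0, 11983, or 19.8% of those tested, was 4147 with at least 100 maternal matches, where fewer windows were tested and the share was 17.05%, and 15761 (20.9%) with at least 10. It was 7136 (11.8%) with the median window and 5302 (8.78%) with the reads stated in the methods. With each combination of start and strand counted at most once in a lane it was 6850, or 12.3% of 55596 windows. No paired analysis was possible because each cross has 1 library. Depth limits the paternal share in Bur-0×Col-0, where 368 matches were found.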
